A study of Homo sapiens with 6 samples.

Results

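The genes described here are the protein-coding genes whose symbol starts with KCN, with SCN and a digit, or with CACN, the naming roots of voltage-gated and other potassium, sodium and calcium channel genes. Of 136 such symbols in the RefSeq gene table, 5 were named and measured among 14884 genes, namely KCNIP1, KCNIP2, KCNIP4, KCNE5 and KCNRG, and the other 131 are not analysed here. All 5 encode accessory or regulatory proteins of voltage-gated potassium channels. None is a pore-forming subunit, so they are called channel accessory genes below, and nothing is reported about sodium or calcium channels. Members were chosen by symbol and gene type, and each gene with several probe sets is represented by the brightest over the 6 arrays.

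RNA came from SH-SY5Y, a cloned human neuroblastoma line with features of sympathetic neurons, hybridised to Affymetrix Human Gene 2.0 ST arrays. Cells received 16F16 at 4 µM, securinine at 30 µM or the solvent methanol (mock) for 24 h, with 2 arrays in each of the 3 groups. Both compounds are described by the submitters as inhibiting protein disulfide isomerase, an enzyme of disulfide bond formation in the endoplasmic reticulum, and their doses differed. All groups were the same line in the same serum-containing medium. The labels name biological replicates without saying how cultures were separated. The p-values set each difference against a spread estimated from these samples, which need not be that between independent cultures.

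Voltage-gated potassium channels open when the membrane depolarises and return a neuron to rest, and so set how often it fires. The pore is built from channel subunits, and accessory proteins bound to it change how many channels reach the surface and how quickly they open and inactivate. KCNIP proteins are cytosolic calcium sensors with EF hands that bind the rapidly inactivating A-type channels. KCNE proteins are small membrane proteins with a single transmembrane segment. KCNRG is a soluble protein related to the domain by which channel subunits recognise each other, and it can interfere with channel assembly.

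The promoter letters of the genes whose values passed a test are shown because they differ in base composition. Each is 250 bases before a RefSeq start on GRCh38.p14, plus strand, with every CG dinucleotide in capitals.
KCNRG, chr13:50015194-50015443: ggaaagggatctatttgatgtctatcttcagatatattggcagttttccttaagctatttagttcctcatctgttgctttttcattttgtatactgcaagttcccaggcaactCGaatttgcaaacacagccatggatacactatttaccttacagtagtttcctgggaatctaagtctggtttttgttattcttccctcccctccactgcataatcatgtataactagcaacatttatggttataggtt
KCNIP1, start 1, chr5:170353237-170353486: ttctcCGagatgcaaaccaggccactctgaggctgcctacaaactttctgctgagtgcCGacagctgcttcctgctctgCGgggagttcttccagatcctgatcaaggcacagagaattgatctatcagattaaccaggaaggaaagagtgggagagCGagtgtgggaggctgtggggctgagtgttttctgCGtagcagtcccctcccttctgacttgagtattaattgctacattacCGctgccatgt
KCNIP1, start 2, chr5:170503770-170504019: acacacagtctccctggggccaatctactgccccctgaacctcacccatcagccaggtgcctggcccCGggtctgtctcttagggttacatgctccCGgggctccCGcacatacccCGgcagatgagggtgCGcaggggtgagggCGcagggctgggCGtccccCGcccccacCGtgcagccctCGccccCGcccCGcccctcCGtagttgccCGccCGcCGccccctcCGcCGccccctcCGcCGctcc
The KCNRG window had 37.2% G and C and 1 CG, and 14.7% of 35116 RefSeq windows of this length held no more than that. The KCNIP1 windows had 52.0% G and C with 6 CG at start 1 and 74.0% with 20 CG at start 2, against a median of 11 CG over all windows. The array values do not tell which KCNIP1 start was in use. Across the 9 windows of the 5 genes, G and C ranged from 37.2% in KCNRG to 83.6% at a KCNIP4 start, which had 38 CG. Letters of the recognition sites of the repressor REST and of AP-1 were searched on both strands. AGCACC, in the left part of the REST site, was in 0 of the 9 windows and in 13% of all windows. GGACAG, in its right part, was in 2 of 9, those of KCNE5 and a KCNIP4 start, and in 17.2% of all. The AP-1 letters TGANTCA were in 1 of 9, another KCNIP4 start, and in 6.57% of all. No window held more than 1 of these 3 motifs.

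All 5 genes were dim or of middling brightness on the array. Values are log2 expression as the authors normalized it with RMA, and the median of all probe sets lay between 4.16 and 4.23 on the 6 arrays with a lower quartile of 2.79 to 2.84. KCNIP2 and KCNRG lay above that median on all 6 arrays. KCNE5 lay above it on 2 arrays, and KCNIP1 and KCNIP4 on 0. None of the 5 was at or below the lower quartile on any array. No detection call was at hand to tell a dim value from background, and levels of different genes are not compared because their probes differ.

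KCNIP1 was lower with securinine than with mock or 16F16. It encodes a calcium sensor of the KCNIP family that is found mainly in brain. Its probe set (16992217, chromosome 5) read 3.60 and 3.56 with 16F16, 3.11 and 3.22 with securinine, and 3.45 and 3.57 with mock. Both securinine arrays lay below the other 4, and the 16F16 and mock arrays overlapped. Against mock, KCNIP1 fell by 0.35 ± 0.088 on the log2 scale with securinine (SE, n = 2 arrays per group, 95% interval -0.564 to -0.126, 1.27-fold lower), with an adjusted p of 0.048 in limma over all genes. Calls were made below an adjusted p of 0.05, and 26.6% of all genes differed by more. It was 0.41 ± 0.088 higher with 16F16 than with securinine (adjusted p = 0.045, interval 0.194 to 0.633). Against mock, 16F16 gave 0.07 ± 0.088, with an interval of -0.151 to 0.287 and an adjusted p of 0.71. The calls were close to the threshold: leaving out any 1 of the 6 arrays ended both, with adjusted p between 0.072 and 0.20 for securinine against mock and between 0.082 and 0.19 for 16F16 against securinine. They also ended when the variance prior followed intensity (adjusted p = 0.19 and 0.13), which allows dim genes a larger spread. Leaving out either array of the group not compared gives the same fit, which changes neither mean and only the estimated spread. Calls over all genes fell too with an array left out, as given further below. With securinine against mock, though, some calls of other genes held where that of KCNIP1 ended.

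KCNRG was lower with 16F16 than with securinine or mock. Its probe set (16774851, chromosome 13) read 5.31 and 4.91 with 16F16, 5.74 and 5.82 with securinine, and 5.81 and 5.82 with mock. Both 16F16 arrays lay below the other 4, and the 16F16 arrays were 0.40 apart, against 0.083 between the securinine arrays and 0.0072 between the mock arrays. KCNRG fell by 0.67 ± 0.14 with 16F16 relative to securinine (1.59-fold lower, interval -1.02 to -0.323, adjusted p = 0.044). Against mock the 16F16 difference was -0.71 ± 0.14 (interval -1.06 to -0.361), and its adjusted p of 0.072 did not pass. Only 1.7% of all genes differed by more between 16F16 and mock. Securinine against mock was -0.04 ± 0.14, with an interval of -0.387 to 0.311 and an adjusted p of 0.89. The call against securinine ended when any 1 of the 6 arrays was left out (adjusted p = 0.062 to 0.17), when arrays were quantile normalized (0.054) and when they were centred on their medians (0.060). The difference from mock passed when only protein-coding genes were tested (adjusted p = 0.046) and when dim genes were left out (0.028). It also passed with the intensity trend (0.0090). As for KCNIP1, calls over all genes fell too with an array left out. Leaving out a mock array changed neither mean of 16F16 against securinine.

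KCNRG overlaps TRIM13, an E3 ubiquitin ligase gene, in the RefSeq table, and the probe positions were not used here, so shared signal could not be told apart. TRIM13 read 7.36 and 7.27 with 16F16, 7.34 and 7.30 with securinine, and 7.93 and 7.80 with mock. Its arrays of both compounds lay below the mock arrays and overlapped each other, unlike those of KCNRG. TRIM13 fell by 0.54 ± 0.088 with securinine (adjusted p = 0.013), and with 16F16 it was at -0.55 ± 0.088 (adjusted p = 0.054). Between 16F16 and securinine the TRIM13 difference was -0.01 ± 0.088, with an interval of -0.223 to 0.211, where KCNRG was at -0.67.

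**Figure D1:**
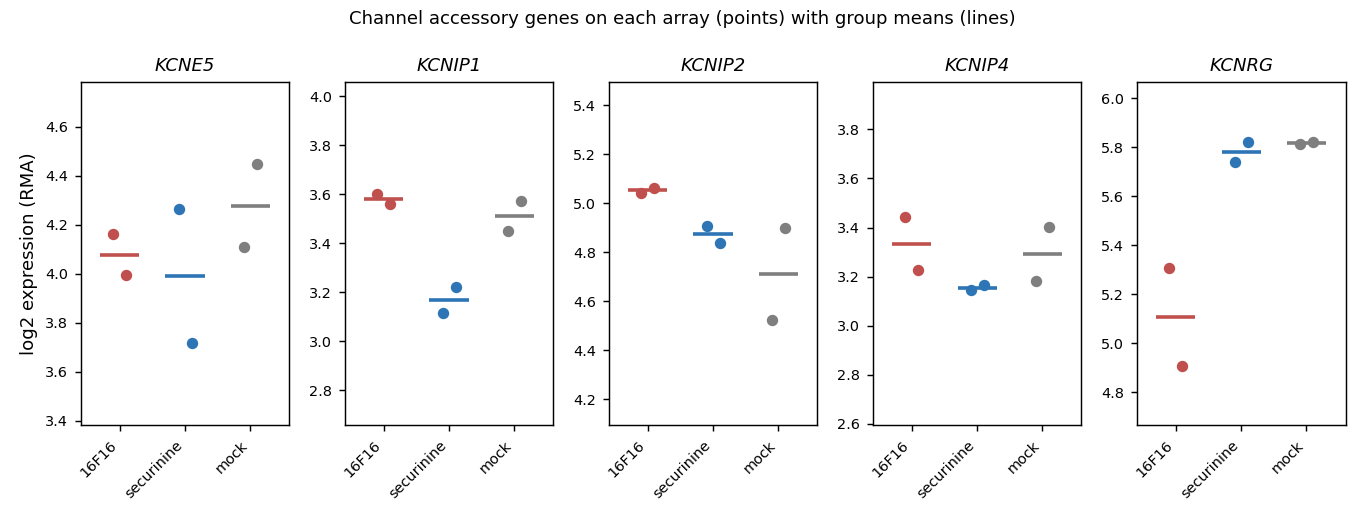
Log2 expression (RMA, vertical axis, a separate range per panel) of the 5 channel accessory genes in 16F16, securinine and mock samples, with a point per array and a line at the mean of 2 arrays. KCNIP1 is low on both securinine arrays (3.11 and 3.22), and KCNRG is low on both 16F16 arrays (5.31 and 4.91).

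KCNIP2, KCNIP4 and KCNE5 did not pass in any comparison. KCNIP2 encodes a calcium sensor that supports the transient outward potassium current of the heart and is also expressed in brain. Its brighter probe set (16717816, chromosome 10) read 5.04 and 5.06 with 16F16, 4.91 and 4.84 with securinine, and 4.53 and 4.90 with mock. Both 16F16 arrays lay above the other 4, and the mock arrays were 0.37 apart. The difference of 16F16 from mock was 0.34 ± 0.13 (unadjusted p = 0.046, adjusted p = 0.23 in limma, interval 0.0090 to 0.673), and it ran from 0.155 without mock replicate 1 to 0.527 without mock replicate 2. Securinine against mock was at 0.16 ± 0.13 (interval -0.170 to 0.494), and 16F16 against securinine at 0.18 ± 0.13 (interval -0.153 to 0.512). The other probe set of KCNIP2 (16708518) read 4.53 and 4.50 with 16F16, 4.24 and 3.95 with securinine, and 4.20 and 4.59 with mock. There the difference of 16F16 from mock was 0.12 ± 0.18, the securinine difference from mock was -0.30, the opposite sign, and the difference of 16F16 from securinine was 0.42. The probe sets thus disagreed on securinine, and neither gave a call.

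KCNIP4, another calcium sensor of this family, read 3.44 and 3.23 with 16F16, 3.14 and 3.17 with securinine, and 3.18 and 3.40 with mock (probe set 16974749, chromosome 4). The securinine arrays were the lowest of the 6, as for KCNIP1, but the mock arrays were 0.22 apart. Its difference was 0.04 ± 0.12 for 16F16 against mock (adjusted p = 0.88), -0.14 ± 0.12 for securinine against mock (0.47) and 0.18 ± 0.12 for 16F16 against securinine (0.38). Their 95% intervals ran from -0.249 to 0.332, from -0.429 to 0.151 and from -0.110 to 0.471. PACRGL, which overlaps KCNIP4 in the RefSeq table, did not pass in any comparison either, at -0.25 ± 0.13 for 16F16 and -0.11 ± 0.13 for securinine against mock.

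KCNE5 encodes a KCNE protein that can suppress slow delayed-rectifier potassium current. Its probe set (17113286, chromosome X) read 4.16 and 3.99 with 16F16, 4.26 and 3.72 with securinine, and 4.11 and 4.45 with mock. The securinine arrays were 0.55 apart, the widest gap within a group among these genes, and all groups overlapped. The difference was -0.20 ± 0.21 for 16F16 against mock (adjusted p = 0.64), -0.29 ± 0.21 for securinine against mock (0.41) and 0.09 ± 0.21 for 16F16 against securinine (0.84). With 2 arrays the securinine interval ran from -0.808 to 0.235, which holds a fall as large as that of KCNIP1 as well as no difference.

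**Figure D2:**
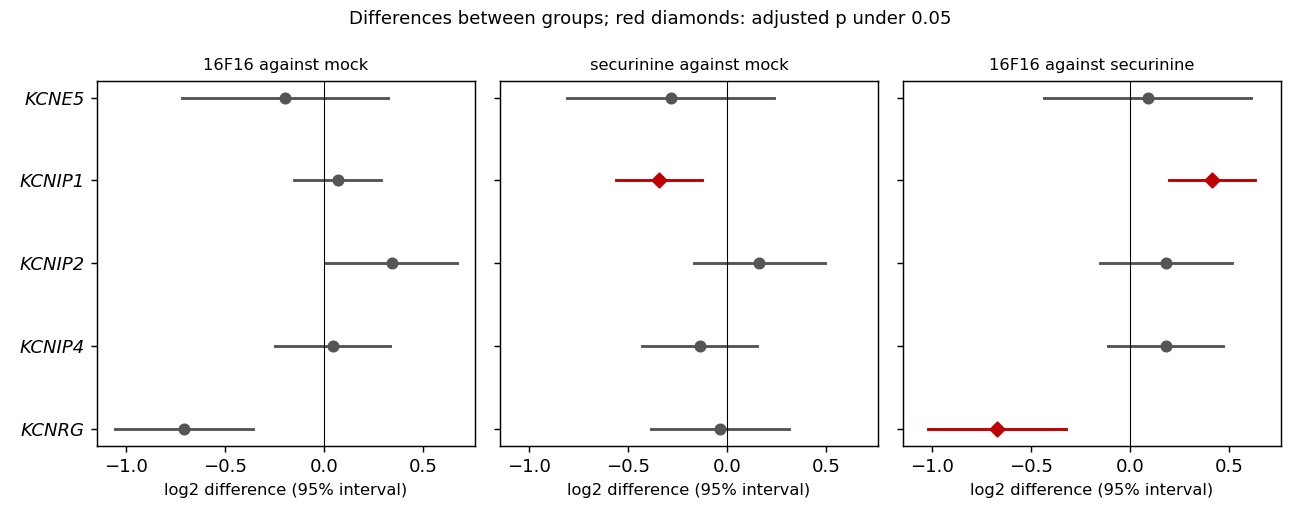
Log2 difference (horizontal axis, point) with its 95% interval (line) for the 5 genes in each comparison, with red diamonds for calls at an adjusted p under 0.05. The calls are KCNIP1 with securinine against mock (-0.35), and KCNIP1 (0.41) and KCNRG (-0.67) with 16F16 against securinine.

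Counted by comparison, few of the genes passed, too few to tell whether a direction was shared. With 16F16 against mock 0 of 5 were called by limma (2 had an unadjusted p below 0.05), where 0.719% of all genes were called higher, 0.779% lower and 1.5% in either direction. With securinine against mock 1 fell and 0 rose, where 8.4% of all genes were called higher, 10.6% lower and 19% in either direction. With 16F16 against securinine 1 rose and 1 fell, where 5.55% of all genes were called higher, 3.96% lower and 9.51% in either direction. In a list of 5, a count of 0 to 2 is too small to set apart from those shares. The median difference of the 5 genes was 0.04 for 16F16 and -0.14 for securinine against mock, and 0.18 for 16F16 against securinine, beside -0.01, -0.04 and 0.01 over all 14884 genes. Median absolute differences were 0.20, 0.16 and 0.18 for the 5 genes and 0.15, 0.19 and 0.17 for all genes, in the same order. Groups whose arrays do not overlap were common with 2 arrays each, at 51.7%, 60.9% and 55.8% of all genes. Both comparisons with mock use the same mock arrays.

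**Figure D3:**
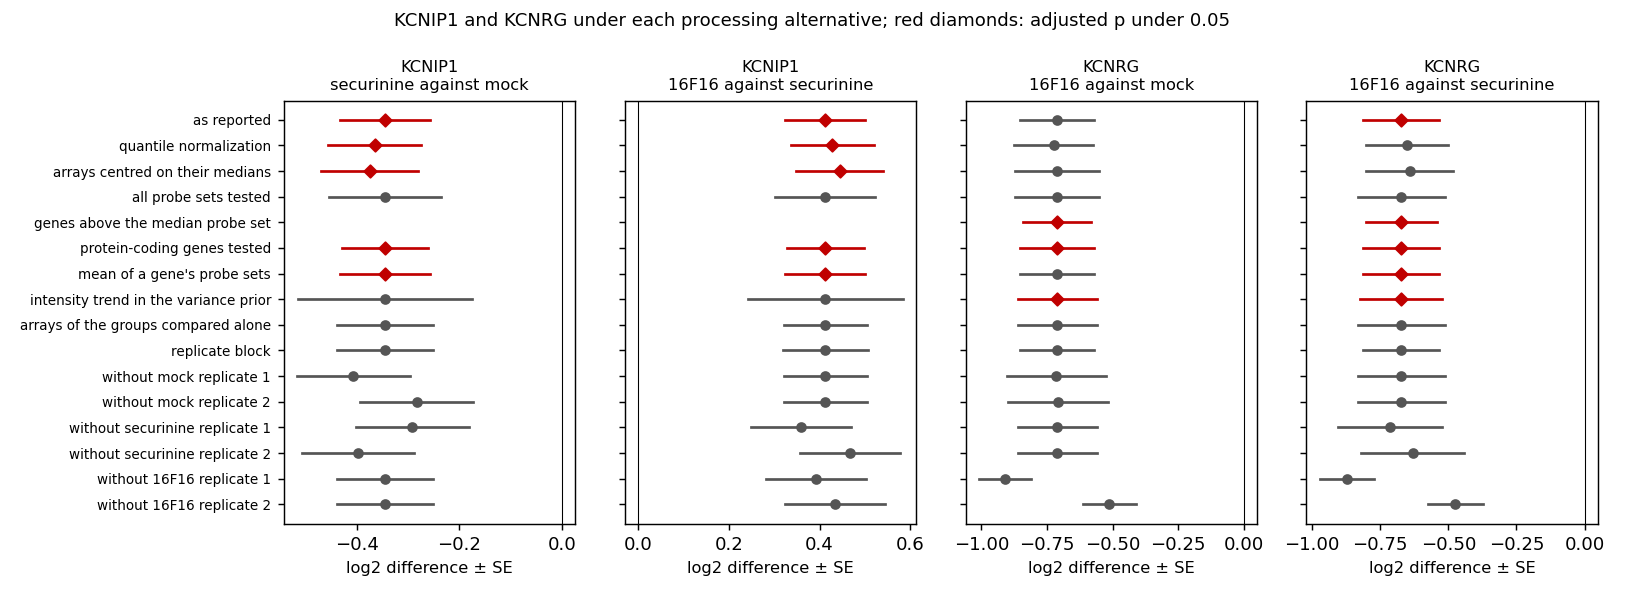
Log2 difference ± SE (horizontal axis) of KCNIP1 and KCNRG under each processing alternative (rows), with red diamonds for calls at an adjusted p under 0.05. Each of the 4 differences keeps its sign in every row where it was fitted, and every row without an array is grey.

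Channel partners, together with leak and pacemaker channel genes, were followed as a list of 34 genes, of which 23 were measured. With securinine 4 fell and 3 rose, and with 16F16 1 fell and 0 rose. Over all genes limma called 10.6% lower and 8.4% higher with securinine, and 0.779% lower and 0.719% higher with 16F16. The same shares stand beside the lists that follow, and no list was tested against them. The list's median was 0.04 for 16F16 and -0.19 for securinine against mock. DPP6 and DPP10 encode membrane proteins that join A-type channels alongside the KCNIP proteins. DPP6 read 6.74 and 6.46 with 16F16, 5.32 and 5.50 with securinine, and 7.15 and 7.09 with mock, and fell by 1.71 ± 0.13 with securinine (adjusted p = 0.0026), where KCNIP1 fell by 0.35. With 16F16 DPP6 was at -0.52 ± 0.13 and did not pass (adjusted p = 0.10). DPP10 read 5.80 and 5.73 with 16F16, 5.42 and 5.42 with securinine, and 6.14 and 6.29 with mock. It fell by 0.79 ± 0.087 with securinine (adjusted p = 0.0053 in limma). With 16F16 DPP10 was at -0.45 ± 0.087 and did not pass (adjusted p = 0.071). FGF14, a cytosolic partner of sodium channels, fell with both compounds, to 7.17 and 6.96 with 16F16 and 7.15 and 7.22 with securinine, against 8.29 and 8.39 with mock (-1.27 ± 0.10 and -1.16 ± 0.10, adjusted p = 0.026 and 0.0040). The securinine call of FGF14 held without each array (adjusted p at most 0.040), and its 16F16 call ended without any 1 of the 6 (0.083 to 0.19), with all probe sets tested, with the arrays compared alone and with the replicate block. In those settings limma called 0 of all genes for 16F16 against mock (2099 to 2904 had an unadjusted p below 0.05 with an array left out), so the other 6 calls of 16F16 named in the lists that follow, VAMP1, RCOR2 and 4 noradrenergic markers, ended there too. With securinine AMIGO1, a partner of delayed-rectifier channels, fell by 0.63 ± 0.14. CNTNAP2, which gathers potassium channels along axons, rose with securinine by 0.94 ± 0.086. So did STAC (0.70 ± 0.095) and UNC80, a subunit of the sodium leak channel complex (0.59 ± 0.086). With 16F16 AMIGO1 was at -0.23 ± 0.14, CNTNAP2 at 0.39 ± 0.086, STAC at 0.12 ± 0.095 and UNC80 at 0.31 ± 0.086, and none passed.

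**Figure D4:**
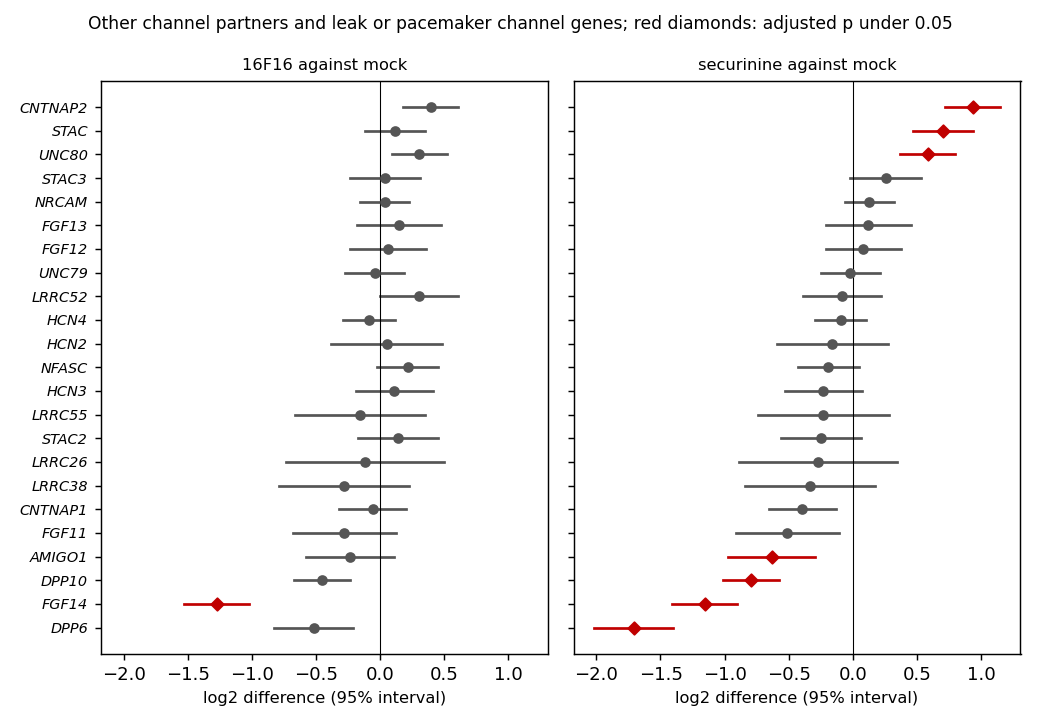
Log2 difference (horizontal axis, point) with its 95% interval (line) for the 23 measured partner and leak or pacemaker channel genes, with red diamonds for calls at an adjusted p under 0.05. With 16F16 FGF14 is called, and with securinine DPP6, FGF14, DPP10 and AMIGO1 are called lower and CNTNAP2, STAC and UNC80 higher.

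Of 24 measured genes of calcium-triggered release, 1 rose with 16F16, VAMP1 (0.90 ± 0.13, adjusted p = 0.042, or 0.087 to 0.23 with an array left out), and 3 rose and 3 fell with securinine, including SYT11 (0.46 ± 0.074) and CADPS (-0.52 ± 0.091). Of 11 measured genes of calcium stores and entry, 0 were called with 16F16 by limma (4 had an unadjusted p below 0.05). With securinine ORAI3 rose by 0.63 ± 0.12 and ORAI1 fell by 0.62 ± 0.12. With 16F16 ORAI3 was at 0.62 ± 0.12 without passing (adjusted p = 0.072 in limma), and ORAI1 at -0.09 ± 0.12. Between 16F16 and securinine the ORAI3 difference was -0.006 ± 0.12. Of 11 genes of REST and its corepressors, 1 fell with 16F16, RCOR2 (-0.96 ± 0.12, adjusted p = 0.038, or 0.083 to 0.22 with an array left out), and 2 rose and 3 fell with securinine, with REST at 0.58 ± 0.099 and RCOR2 at -0.83 ± 0.12. The sodium pump and exchanger list had 0 measured genes. Beside these counts, 19% of all genes were called with securinine and 1.5% with 16F16 against mock.

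On all 6 arrays 7 of 11 mesenchymal and Schwann-like markers and 3 of 4 muscle markers lay above the median probe set. That median is over all probe sets, of which 30% were named, so a position above it is not a test of cell type. All 15 measured markers of noradrenergic neuroblastoma lay above it on all 6 arrays too. With 16F16 4 of them fell, CHGA, CHGB, DDC and RET, calls that ended without any 1 array, and with securinine 8 fell and 1 rose. Of 8 epithelial, blood and endothelial markers 4 lay above that median on all arrays, with a list median of 4.43 and 4.71 for 16F16, 4.73 and 4.79 for securinine, and 4.48 and 4.73 for mock. In that list CD68 (2.18 ± 0.20) and CD14 (0.57 ± 0.14) rose with securinine, and 0 were called with 16F16 by limma (1 had an unadjusted p below 0.05). With 16F16 CD68 was at 0.96 ± 0.20 without passing (adjusted p = 0.076 in limma), and CD14 at 0.05 ± 0.14. Of 11 mesenchymal and Schwann-like markers, CD44, SNAI2 and TWIST1 rose with securinine, where 6 had an unadjusted p below 0.05. FN1 (-0.43 ± 0.12), S100B (-0.63 ± 0.21) and PRRX1 (-0.19 ± 0.0735) were lower without passing (unadjusted p = 0.012, 0.027 and 0.041 in limma). With 16F16 0 were called by limma (4 had an unadjusted p below 0.05). SNAI2 was at 0.61 ± 0.12 with 16F16, beside 0.63 ± 0.12 with securinine. Of 4 muscle markers 0 were called with either compound by limma (2 had an unadjusted p below 0.05 with each). For the marker lists too, the share over all genes was 19% called with securinine and 1.5% with 16F16. CD68, CD14, CD44, SNAI2 and TWIST1 were higher in the securinine samples, where KCNIP1 was lower, and their part in its difference was not tested. Of the 34 securinine calls in the partner, release, store, REST and marker lists, 9 held without each of the 6 arrays, namely DPP6, DPP10, FGF14, CNTNAP2, CHGA, DDC, RET, GATA2 and CD68, and the other 25 ended without at least 1. In bulk RNA, fewer cells of a type and less RNA per cell cannot be told apart.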

How the data were processed

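RNA of SH-SY5Y cells was measured on 6 arrays. The deposited values are log2 expression of 53617 probe sets per array, made by the authors with RMA, which the submitters' processing notes list beside limma with no version. Neither the array's annotation release nor its build is given in the sources used here. RMA sets the arrays to a common distribution, so a shift of most genes together would not be seen. A platform table named 16098 probe sets, all matched by Entrez identifier to RefSeq (GRCh38.p14), giving 14884 genes. The brightest probe set stood for each of the 779 genes with several.

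All genes were fitted with limma (3.58.1, R 4.3.3) on the 6 arrays with group as the term, giving 3 residual and 2.68 prior degrees of freedom. Two-sided p-values received a Benjamini-Hochberg adjustment over 14884 genes. An error is the SE of the fit, and intervals are at 95%. The number of arrays limits the precision.

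Named genes were all 5 members and, of each further list, some or all of up to 4 genes with the lowest p per comparison with mock. Those left out include genes with a lower p than a named one, as in the REST list. AMIGO1, STAC and UNC80 were added as the other calls of their list, after their values were seen. Some of the markers, and the genes overlapping a member, were also added after their values were seen. Other called genes of the lists are counted without being named. The members and lists were chosen with earlier results of these data known. Alternatives were another normalization, centring, the genes tested, the probe sets, the variance prior, the arrays in the fit, the replicate number as a block, and leaving out each array. Promoter sequences are from RefSeq.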

Additional observations from a re-analysis of the deposited data

How the results depend on the processing

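Of 219 recomputed differences of single genes, 178 kept their sign and their side of the threshold, 31 lost a call, 3 gained a call and 7 changed sign. The number of genes lower with securinine than with mock, 1 as reported (KCNIP1), was 0 with all probe sets tested, with genes above the median probe set, with an intensity trend, with the arrays of the groups compared alone and with the replicate block, and 0 to 0 with an array left out. The number lower with 16F16 than with mock, 0 as reported, was 1 (KCNRG) for genes above the median probe set, for protein-coding genes and with an intensity trend. The numbers higher and lower with 16F16 than with securinine, 1 each as reported, were both 0 with all probe sets, with the arrays compared alone and with the replicate block, and 0 to 0 with an array left out. The lower one was also 0 with quantile or median scaling, and the higher one was 0 with genes above the median probe set, where KCNIP1, KCNIP4 and KCNE5 were not in the fit, and with an intensity trend. Over the 2 genes above the median probe set all 3 median differences changed sign, to -0.185 for 16F16 against mock, 0.0619 for securinine against mock and -0.247 for 16F16 against securinine. With an array left out they ran from -0.0692 to 0.13, from -0.25 to -0.0343 and from 0.0737 to 0.214. KCNIP2 with securinine against mock turned to -0.070 with the mean of its probe sets and to -0.30 with its other probe set, an alternative chosen after seeing the data, and ran from -0.024 to 0.35 with an array left out. KCNRG with securinine against mock ran from -0.079 to 0.0034, KCNIP4 with 16F16 against mock from -0.069 to 0.15 and KCNE5 with 16F16 against securinine from -0.19 to 0.36 with an array left out. The cause was not tested, apart from the fewer arrays or genes in a fit. An array left alone in its group was assumed to vary like the others. For each comparison, leaving out either array of the group not compared gave the same fit as the arrays compared alone. Each of these was counted among the recomputed differences.

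Deviations from group means correlated over genes at -0.05 to 0.038 between groups, so arrays of the same replicate number shared little gene-by-gene pattern. A shift of all genes together would not show in this correlation. The labels do not say whether the samples were paired. With the replicate block KCNIP1 with securinine was at -0.35 (adjusted p = 0.076) and KCNRG with 16F16 against securinine at -0.67 (0.074). Calls over all genes, 2823 for securinine against mock, 223 for 16F16 against mock and 1416 for 16F16 against securinine, ranged from 629 to 2462, 0 to 0 and 0 to 324 with an array left out. Under the other alternatives they ranged from 1013, 0 and 0 with all probe sets tested to 4129, 1808 and 3107 with an intensity trend.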

Other observations

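Another 9 measured genes carry symbols with the same beginnings but are not of the protein-coding gene type. None was called in limma in any comparison, and 1 with 16F16 against mock, 2 with securinine against mock and 1 with 16F16 against securinine had an unadjusted p under 0.05.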
